A study of Mus musculus with 24 samples.

Results

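The genes described here are 10 members of the Notch pathway: the receptors Notch1, Notch2, Notch3 and Notch4, the ligands Dll1, Dll4, Jag1 and Jag2, and the target genes Hey1 and Heyl. They were set by gene name, and were found by Ensembl ID among the 54418 genes of the deposited count table. All 10 passed the filter on low counts that left 19050 genes for testing. The data are RNA-seq of 24 libraries of stromal cells sorted from the intestine of C57Bl6 mice aged 8 to 12 weeks. Every library came from cells negative for Epcam, an epithelial surface protein, and for CD45, a surface protein of blood cells. Cells were further divided by CD31 (gene Pecam1), which marks endothelium, and by the signal of a GFP transgene for Rspo3, which encodes a secreted enhancer of Wnt signalling. The labels name no treatment and do not give the build of the transgene.

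The 8 groups had 3 libraries each. In the colon they were CD31+ Rspo3+, CD31+ Rspo3-, CD31- Rspo3+ and CD31- Rspo3- cells. The small intestine (SI) gave CD31+ Rspo3+, CD31+ Rspo3-, CD31- Rspo3+ and CD31- Rspo3- cells. Nothing in the labels ties a library to its own mouse or to a pool of mice, so that p-values measure only the spread between libraries. Libraries are numbered 1 to 3 in the order of their columns, and equal numbers do not pair libraries.

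Notch receptors are read out between neighbouring cells. A Delta-like or Jagged ligand on one cell binds a receptor on the next, the receptor is cut by ADAM proteases and then by gamma-secretase, and the freed intracellular part joins RBPJ and MAML proteins to turn on targets such as the HES and HEY repressors. In blood vessels Dll4 and Notch1 restrain sprouting, Notch4 is a receptor largely of endothelial cells, and Notch3 is the receptor of pericytes and vascular smooth muscle. Lymphatic vessels, which absorb fat from the gut wall, carry Notch1 and Dll4 as well.

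Library totals were between 8462041 and 29214487 estimated counts, with a median of 17881736. Levels within a gene are given as CPM, the counts per 1000000 of a library's total after TMM scaling. The sort was visible in the RNA. Pecam1 was at 347 CPM or more in every CD31+ library and at 43.9 CPM or less in every CD31- library. Rspo3 RNA was 353 to 409 CPM in Colon CD31+ Rspo3+ cells, against 11.1 to 15.9 CPM in Colon CD31+ Rspo3- cells. In SI CD31+ cells it was 303 to 449.9 CPM with the reporter, against 15.3 to 24.1 CPM without it. The CD31- cells had 139 to 267 CPM in Colon Rspo3+ libraries, against 12.2 to 15.6 CPM in Colon Rspo3- libraries. In SI CD31- cells the values were 273 to 332 CPM with the reporter, against 13.1 to 16.5 CPM without it. These libraries are bulk RNA, in which fewer cells of a type and less RNA per cell cannot be told apart.

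Some libraries stood apart or went against their labels. Library 3 of Colon CD31- Rspo3+ cells had a summed level of 10 immune markers of 5051 CPM, against 359 and 207 CPM in the other libraries of its group, and 10 epithelial markers summed to 2425 CPM there. Library 3 of Colon CD31+ Rspo3- cells had a summed level of 10 fibroblast markers of 9910.1 CPM, against 1494 and 1995 CPM in the other libraries of its group. Of the libraries labelled Epcam-negative, those of SI CD31- Rspo3- cells held 594 to 1069 CPM of Epcam and those of Colon CD31- Rspo3- cells 101 to 326 CPM, and library 3 of Colon CD31- Rspo3+ cells 197 CPM, against 4.20 to 65.6 CPM in the other 17. Results that rest on the libraries that stand apart are given with and without them where the value or the call moved. Adjusted p-values are from edgeR's quasi-likelihood test, adjusted over all 19050 genes, with 0.05 as the threshold.

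Of the 4 comparisons by Rspo3 reporter, those in CD31+ cells had the most Notch members past the test. In Colon CD31+ cells 6 of 10 members passed the test, 1 higher and 5 lower in Rspo3+ cells, where 23.1% of all genes passed, 9.52% as higher and 13.6% as lower. In SI CD31+ cells 8 of 10 passed, 2 higher and 6 lower, where 20.1% of all genes passed, 9.23% as higher and 10.8% as lower. Notch4, Notch3, Jag2, Jag1 and Dll1 fell in both tissues, and Notch2 rose in both. The median log2 fold change of the 10 members was -1.28 in the colon and -1.32 in the SI, while the median over all genes was -0.05 and 0.

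Markers of vessel types moved with the reporter in the same cells. All 10 lymphatic endothelial markers passed the test as higher in Rspo3+ cells in both tissues, with summed levels of 40996 to 51598 CPM in Colon CD31+ Rspo3+ cells, against 2116 to 2589 CPM in Colon CD31+ Rspo3- cells. The same sums were 31792 to 35668 CPM in SI CD31+ Rspo3+ cells, against 3394 to 6303 CPM in SI CD31+ Rspo3- cells. Of 10 blood endothelial markers 8 passed as lower in each tissue, and summed to 1286 to 1553 CPM in Colon CD31+ Rspo3+ cells, against 16854 to 21819 CPM in Colon CD31+ Rspo3- cells. In the SI these sums were 970.0 to 1032 CPM with the reporter, against 14113 to 16431 CPM without it. Of 10 arterial markers, 8 were lower in the colon and 7 in the SI, and 1 was higher in each. The 6 venous markers were mixed, with 1 higher and 3 lower in the colon, and 2 higher and 3 lower in the SI. Pecam1 itself was lower with the reporter, 2.09-fold in the colon (adjusted p = 0.0181) and 2.69-fold in the SI (adjusted p = 0.00256). No list has a marker at 0 in all libraries of a CD31+ group, with these exceptions. In Colon CD31+ Rspo3+ cells 4 of 6 mesothelial markers were at 0, and in SI CD31+ Rspo3- cells 1 of 8 glial markers was. Of the glial markers 7 could be tested. The part of these vessel types in the Notch differences was not tested.

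Notch4 (ENSMUSG00000015468, chr17:34564268-34588503, plus strand in GRCm38) had the smallest adjusted p among the receptors between CD31+ Rspo3+ and CD31+ Rspo3- cells, in both tissues. It stood at 8.12, 6.46 and 8.34 CPM in the 3 libraries of Colon CD31+ Rspo3+ cells, against 146, 98.2 and 87.7 CPM in Colon CD31+ Rspo3- cells. In the SI it stood at 12.8, 15.3 and 7.82 CPM in CD31+ Rspo3+ cells, against 152, 74.3 and 136 CPM in CD31+ Rspo3- cells. Every Rspo3+ library was thus far below every Rspo3- library in both tissues. Notch4 fell 14.5-fold in the colon (log2 fold change -3.85 ± 0.36 SE, adjusted p = 1.36e-07) and also in the SI (log2 fold change -3.33 ± 0.35 SE, adjusted p = 6.35e-07). CD31- cells held little of it, at 0.918 to 2.97 CPM in Colon Rspo3+, 0.866 to 1.15 in Colon Rspo3-, 1.82 to 2.31 in SI Rspo3+ and 1.00 to 1.68 CPM in SI Rspo3- libraries.

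Notch1 (ENSMUSG00000026923, chr2:26457903-26516663, minus strand), by contrast, was a receptor of all CD31+ groups. It was 207, 179 and 259 CPM in Colon CD31+ Rspo3+ cells, against 138, 126 and 97.1 CPM in Colon CD31+ Rspo3- cells. The SI libraries held 177, 163 and 82.3 CPM in CD31+ Rspo3+ cells, against 163, 81.0 and 106 CPM in CD31+ Rspo3- cells. The colon groups did not overlap, but the difference did not pass the test (log2 fold change 0.84 ± 0.37 SE, adjusted p = 0.113), and in the SI the groups overlapped (log2 fold change 0.27 ± 0.37 SE, adjusted p = 0.672). The colon difference did pass with limma voom (0.0359) and with only the compared libraries (0.0146). All 12 CD31- libraries lay lower, between 5.73 and 28.1 CPM. Genes on the opposite strand overlap Notch1, Dll1, Dll4, Notch3 and Notch4, and the library chemistry does not mark strand, so that their reads cannot be told apart. Those of them with a row held at most 2574 counts summed over all 24 libraries, for Gm13568 at Notch1.

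Notch2 (ENSMUSG00000027878, chr3:98013527-98150361, plus strand) went the other way from Notch4. Its levels were 33.5, 26.1 and 31.3 CPM in Colon CD31+ Rspo3+ cells, against 6.54, 5.40 and 9.06 CPM in Colon CD31+ Rspo3- cells. In SI CD31+ cells they were 24.3, 26.4 and 10.8 CPM with the reporter, against 5.61, 2.35 and 5.69 CPM without it. The lowest Rspo3+ library lay above the highest Rspo3- library in both tissues. Notch2 rose 4.32-fold in the colon (log2 fold change 2.11 ± 0.47 SE, adjusted p = 0.0025) and 4.52-fold in the SI (log2 fold change 2.18 ± 0.48 SE, adjusted p = 0.00249). It was also the only receptor whose highest group mean was in CD31- cells, at 50.2 ± 8.28 CPM in Colon CD31- Rspo3+ cells (SD, n = 3), although neighbouring groups in the order of its levels overlapped at every step.

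Notch3 (ENSMUSG00000038146, chr17:32120820-32166852, minus strand), the receptor of mural cells, was low wherever the reporter was on. In Colon CD31+ cells it was 2.04, 1.41 and 2.00 CPM with the reporter, against 31.6, 18.9 and 26.8 CPM without it. The SI CD31+ Rspo3+ libraries held 0.367, 2.64 and 0.237 CPM, from 8, 43 and 2 counts, against 44.6, 19.8 and 29.3 CPM in SI CD31+ Rspo3- libraries. The highest Rspo3+ library was below the lowest Rspo3- library in each tissue. Notch3 fell 14.1-fold in the colon (log2 fold change -3.82 ± 0.72 SE, adjusted p = 0.000551) and 27.8-fold in the SI (log2 fold change -4.80 ± 0.76 SE, adjusted p = 0.0001), and the SI log2 fold change was -6.59 without library 2 of SI CD31+ Rspo3+ cells. Pericyte markers moved with it, with 9 of 10 lower and 1 higher in the colon, and 8 lower and 2 higher in the SI. Of the 10 smooth muscle markers 8 were lower and 2 higher in the colon, and 7 lower and 2 higher in the SI. The pericyte marker Rgs5 was 14.5 to 25.3 CPM in Colon CD31+ Rspo3+ cells, against 309.9 to 566 CPM in Colon CD31+ Rspo3- cells, and 9.13 to 21.4 CPM in SI CD31+ Rspo3+ cells, against 223 to 265 CPM in SI CD31+ Rspo3- cells. The 10 pericyte markers summed to 177 to 192 CPM in Colon CD31+ Rspo3+ cells, against 864 to 1176 CPM in Colon CD31+ Rspo3- cells. In SI CD31+ cells these sums overlapped, at 378 to 471 CPM with the reporter, against 435 to 733 CPM without it. Smooth muscle sums in Colon CD31+ cells were 554 to 689 CPM with the reporter, against 910 to 1420 CPM without it. In the SI they overlapped too, at 961 to 1103 CPM with the reporter, against 884 to 1577 CPM without it. The part of mural cells in the Notch3 difference was not tested.

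**Figure D1:**
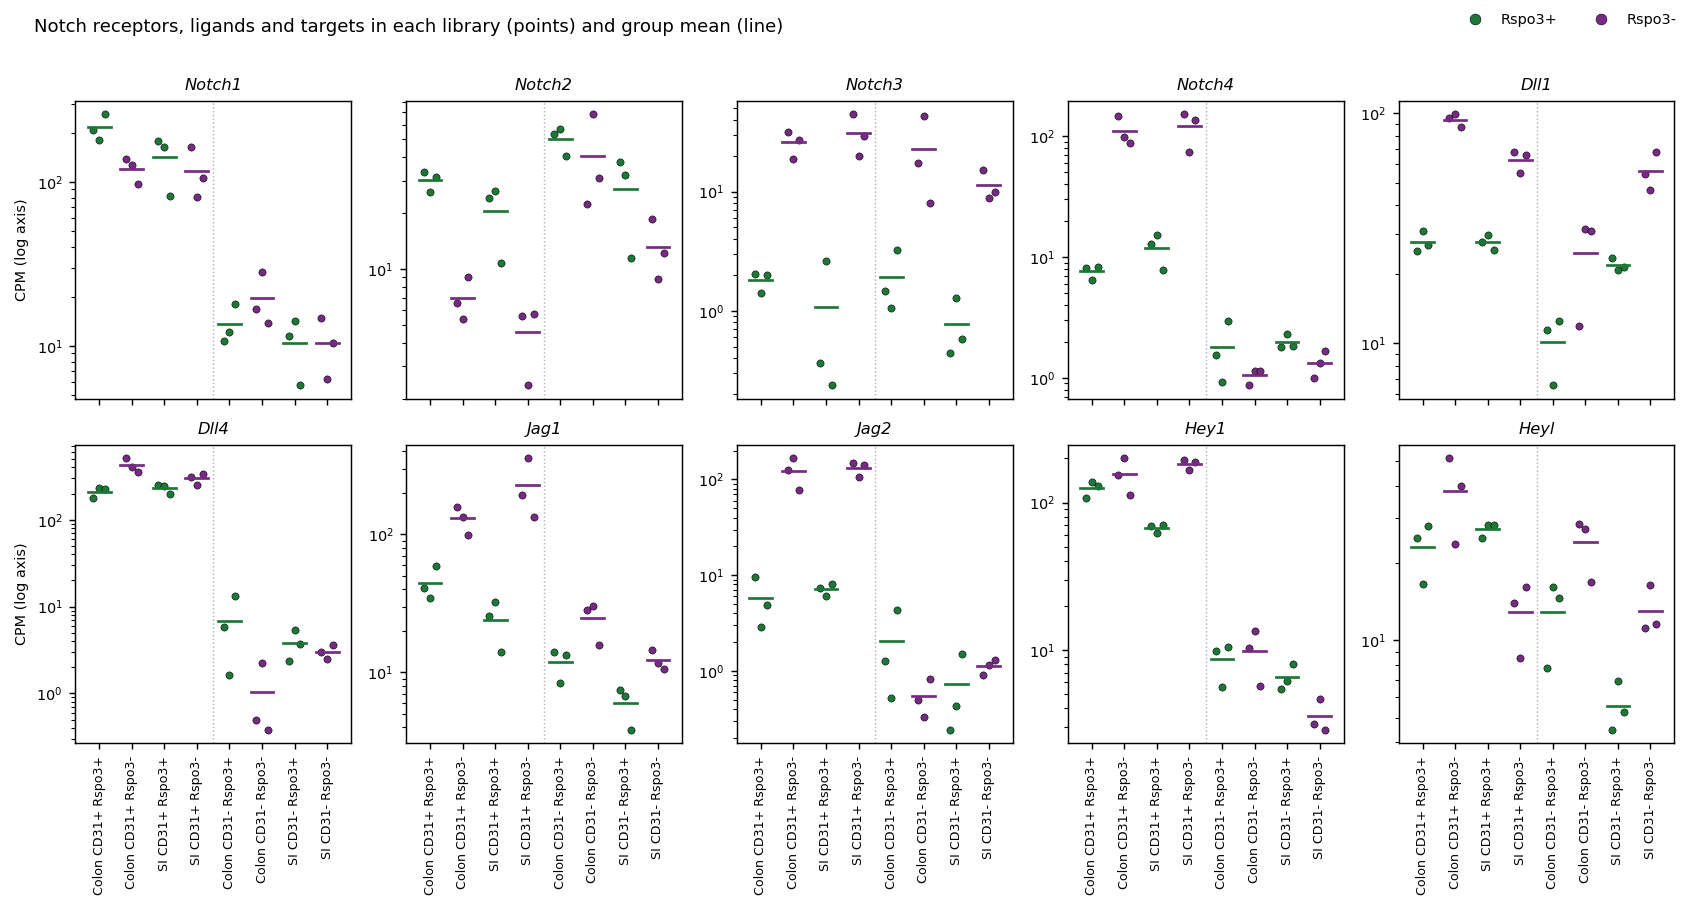
Levels of the 10 Notch members in CPM (log axis) in the 8 groups, with 1 point per library and a bar for the mean of 3 libraries. Notch4 and Jag2 are high in CD31+ Rspo3- cells and low in the other groups, Notch3 is low in all Rspo3+ groups, and Notch1, Dll4 and Hey1 are higher in every CD31+ library than in any CD31- library.

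Among the ligands, Jag2 (ENSMUSG00000002799, chr12:112907819-112929776, minus strand) behaved as Notch4 did. The 3 libraries of Colon CD31+ Rspo3+ cells had 9.56, 2.88 and 4.93 CPM, against 127, 166 and 76.9 CPM in Colon CD31+ Rspo3- cells. SI CD31+ Rspo3+ libraries had 7.30, 6.01 and 8.18 CPM, against 149, 107 and 143 CPM in SI CD31+ Rspo3- libraries. The groups were separated by several-fold in both tissues, with a fall of 21.3-fold in the colon (log2 fold change -4.41 ± 0.60 SE, adjusted p = 1.6e-05) and 18.7-fold in the SI (log2 fold change -4.22 ± 0.60 SE, adjusted p = 2.82e-05). In CD31- cells Jag2 was 0.242 to 4.36 CPM over the 12 libraries.

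Jag1 (ENSMUSG00000027276, chr2:137081456-137116644, minus strand), a ligand of arteries and mural cells, was 41.2, 34.5 and 58.6 CPM in Colon CD31+ Rspo3+ cells, against 158, 135 and 99.2 CPM in Colon CD31+ Rspo3- cells. The SI levels were 25.7, 32.2 and 14.1 CPM in CD31+ Rspo3+ cells, against 194, 355 and 134 CPM in CD31+ Rspo3- cells, where library 2 was the highest of all 24. No Rspo3+ library reached the lowest Rspo3- library of its tissue. Jag1 fell 2.92-fold in the colon (log2 fold change -1.55 ± 0.36 SE, adjusted p = 0.00379) and 9.43-fold in the SI (log2 fold change -3.24 ± 0.39 SE, adjusted p = 3.76e-06). Whether the fall differed between the tissues was tested by an interaction, which did not pass (colon minus SI 1.69 ± 0.51 SE on the log2 scale, adjusted p = 0.101). It passed with DESeq2 (0.0271) and without library 3 of SI CD31+ Rspo3- cells (0.0485).

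Dll1 (ENSMUSG00000014773, chr17:15367354-15376872, minus strand), a ligand used in many tissues, differed less but with little spread. It was 25.3, 30.7 and 26.8 CPM in Colon CD31+ Rspo3+ cells, against 95.6, 99.4 and 87.0 CPM in Colon CD31+ Rspo3- cells. In the SI its values were 27.6, 29.7 and 25.6 CPM in CD31+ Rspo3+ cells, against 67.8, 55.2 and 66.2 CPM in CD31+ Rspo3- cells. The libraries of each group lay close together and the groups did not overlap. Dll1 fell 3.40-fold in the colon (log2 fold change -1.77 ± 0.27 SE, adjusted p = 5.93e-05) and 2.28-fold in the SI (log2 fold change -1.19 ± 0.27 SE, adjusted p = 0.00285).

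Dll4 (ENSMUSG00000027314, chr2:119325784-119335962, plus strand), the endothelial ligand, was the most abundant ligand of CD31+ cells per length and stayed high with the reporter. Its levels were 179, 229 and 224 CPM in Colon CD31+ Rspo3+ cells, against 509, 409.7 and 355 CPM in Colon CD31+ Rspo3- cells, and these groups did not overlap. The SI libraries held 254, 242 and 196 CPM in CD31+ Rspo3+ cells, against 313, 252 and 338 CPM in CD31+ Rspo3- cells, with library 1 of the Rspo3+ group just above library 2 of the Rspo3- group. The test was passed neither in the colon (log2 fold change -1.01 ± 0.49 SE, adjusted p = 0.148) nor in the SI (log2 fold change -0.39 ± 0.48 SE, adjusted p = 0.646). Limma voom and the fit of only the compared libraries called Dll4 lower in Colon CD31+ Rspo3+ cells (0.0015 and 0.00446).

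The targets were less uniform. Hey1 (ENSMUSG00000040289, chr3:8663359-8667256, minus strand), a transcriptional repressor turned on by Notch in endothelium, was 108, 139 and 129 CPM in Colon CD31+ Rspo3+ cells, against 155, 199.8 and 112 CPM in Colon CD31+ Rspo3- cells. The SI had 69.1, 61.9 and 70.1 CPM in CD31+ Rspo3+ cells, against 196, 166 and 189 CPM in CD31+ Rspo3- cells. The groups overlapped in the colon and were widely apart in the SI, where Hey1 fell 2.74-fold (log2 fold change -1.45 ± 0.27 SE, adjusted p = 0.000579), against a log2 fold change of -0.31 ± 0.27 SE (adjusted p = 0.445) in the colon. The difference between the tissues did not itself pass (1.14 ± 0.38 SE, adjusted p = 0.148), but did with limma voom (0.0249) and with only the compared libraries (0.0377).

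Heyl (ENSMUSG00000032744, chr4:123233556-123249875, plus strand), a related repressor, was 25.1, 16.6 and 27.8 CPM in Colon CD31+ Rspo3+ cells, against 51.2, 23.8 and 40.1 CPM in Colon CD31+ Rspo3- cells. In the SI it was 25.1, 28.1 and 28.2 CPM in CD31+ Rspo3+ cells, against 14.0, 8.51 and 16.2 CPM in CD31+ Rspo3- cells. The groups overlapped in the colon and not in the SI. Heyl rose 2.10-fold in the SI (log2 fold change 1.07 ± 0.33 SE, adjusted p = 0.0235) and did not pass in the colon (log2 fold change -0.72 ± 0.32 SE, adjusted p = 0.114). The SI call was lost without library 2 of SI CD31+ Rspo3- cells (adjusted p = 0.113), without library 2 of SI CD31+ Rspo3+ cells (0.0617) and without library 3 of that group (0.0591). In the colon Heyl passed as lower without library 2 of Colon CD31+ Rspo3- cells (0.045).

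**Figure D2:**
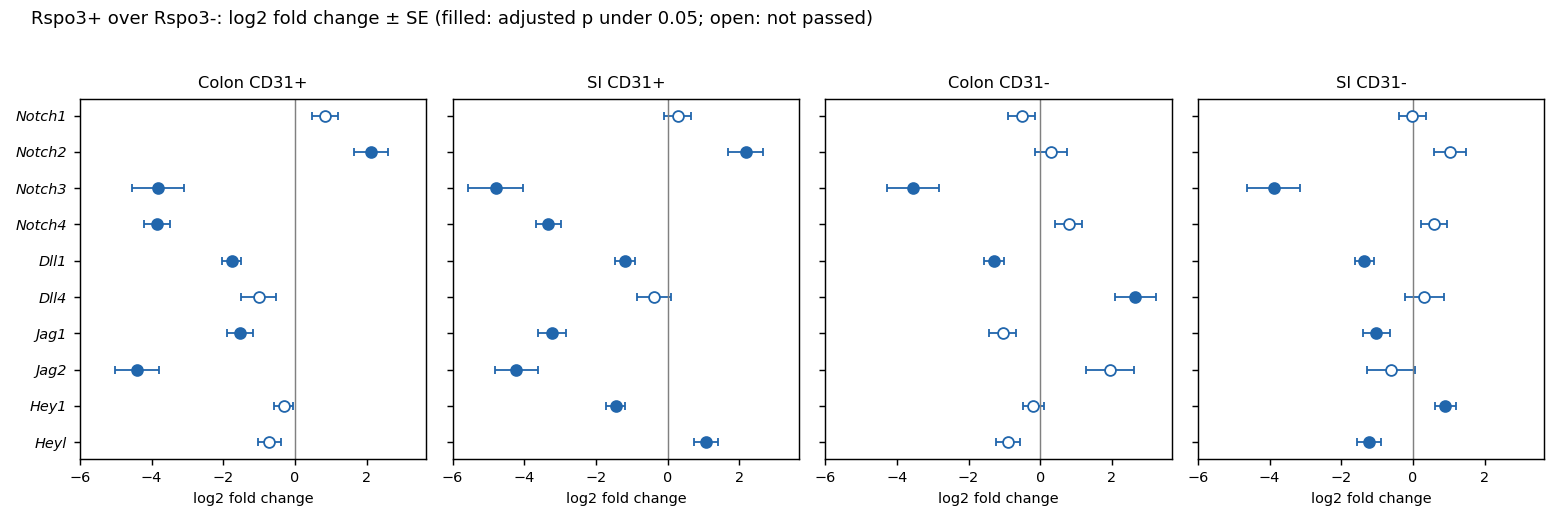
Log2 fold changes of the 10 members between Rspo3+ and Rspo3- cells in 4 comparisons (points, with bars of 1 standard error; filled where the adjusted p was under 0.05). In CD31+ cells of both tissues Notch4, Notch3, Jag2, Jag1 and Dll1 lie below 0 and Notch2 above it, and Notch3 lies below 0 in all 4 comparisons.

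Promoter sequences are shown for 3 members that moved with the reporter in CD31+ cells, since Notch4 and Jag2 were high together in CD31+ Rspo3- cells and Notch2 was low there, and for the Notch target Hey2, described with the other pathway genes. Each is the window of 250 bases before to 50 bases after the gene's start in RefSeq (GRCm38.p6), 5′ to 3′ on the gene's strand, in lower case with motif matches in capitals. The motifs searched on both strands were GTGGGAA (bound by RBPJ), CACGTG (an E-box, bound by HEY and HES proteins among others), CCGGAAG (ETS factors) and TGANTCA (AP-1), none of which overlapped another in these windows.
Notch4 (chr17:34564045-34564344, plus strand): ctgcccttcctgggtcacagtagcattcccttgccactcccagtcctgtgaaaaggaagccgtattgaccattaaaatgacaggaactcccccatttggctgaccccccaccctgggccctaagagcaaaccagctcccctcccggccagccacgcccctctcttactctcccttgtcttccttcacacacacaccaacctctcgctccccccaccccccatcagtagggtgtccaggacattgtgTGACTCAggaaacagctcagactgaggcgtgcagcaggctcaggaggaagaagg
Jag2 (chr12:112929446-112929745, minus strand): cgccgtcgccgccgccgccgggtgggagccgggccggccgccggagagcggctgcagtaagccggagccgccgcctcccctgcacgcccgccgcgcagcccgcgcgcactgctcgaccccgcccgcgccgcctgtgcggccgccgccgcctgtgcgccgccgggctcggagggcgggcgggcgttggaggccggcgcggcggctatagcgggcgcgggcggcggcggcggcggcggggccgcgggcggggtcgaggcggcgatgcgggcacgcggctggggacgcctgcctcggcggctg
Notch2 (chr3:98013288-98013587, plus strand): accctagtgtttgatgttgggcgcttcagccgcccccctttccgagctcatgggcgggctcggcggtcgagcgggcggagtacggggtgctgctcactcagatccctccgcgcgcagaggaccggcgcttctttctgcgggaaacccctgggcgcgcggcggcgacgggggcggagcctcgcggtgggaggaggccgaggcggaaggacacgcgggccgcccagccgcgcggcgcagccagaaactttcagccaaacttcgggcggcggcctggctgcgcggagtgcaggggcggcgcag
Hey2 (chr10:30842734-30843033, minus strand): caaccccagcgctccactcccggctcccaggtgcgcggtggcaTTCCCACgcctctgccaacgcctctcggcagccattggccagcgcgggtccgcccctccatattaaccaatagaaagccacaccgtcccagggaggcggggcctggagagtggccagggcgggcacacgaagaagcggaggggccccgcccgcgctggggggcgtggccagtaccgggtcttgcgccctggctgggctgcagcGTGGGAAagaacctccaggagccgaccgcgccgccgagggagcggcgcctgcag
The capitals mark an AP-1 match across the start of Notch4 and 2 RBPJ matches in the window of Hey2, 1 of them across its start. The windows of Notch4 and Jag2 are unlike in composition although the genes' levels moved together. The Jag2 window is 86.0% G and C with 63 CpG dinucleotides, and the Notch4 window 58.3% with 5. The Notch2 window is 73.0% G and C with 41 CpG.

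Promoter windows were found for 8 of the 10 members, 9 windows in all. The targets Hey1 and Heyl had no window, so the 9 are those of receptors and ligands only. None of the 9 held the RBPJ, E-box or ETS letters, and 2 held the AP-1 letters, those of Notch4 and of the second Dll1 start. Of all 32851 windows in the table, 6.38% held the RBPJ letters, 7.15% the E-box, 8.86% the ETS letters and 7.81% the AP-1 letters. Among 51 windows of the other pathway genes 8 held the RBPJ letters, 7 the E-box, 9 the ETS letters and 1 the AP-1 letters. A match describes letters and not a bound site.

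Per length, in TPM (transcripts per 1000000), the make-up of the receptors and ligands changed with the reporter. Notch1 made up 81.9% ± 2.60 of the summed receptor TPM in Colon CD31+ Rspo3+ cells, against 33.7% ± 2.41 in Colon CD31+ Rspo3- cells (SD, n = 3 each). Notch4 took 5.81% ± 1.95 in Colon CD31+ Rspo3+ cells, against 57.0% ± 4.07 in Colon CD31+ Rspo3- cells. In the SI the Notch1 share was 72.0% ± 8.18 in CD31+ Rspo3+ cells, against 28.4% ± 3.66 in CD31+ Rspo3- cells. The Notch4 share there was 14.6% ± 8.68 with the reporter, against 62.1% ± 5.87 without it. The leading receptor of CD31+ cells by TPM was therefore Notch1 with the reporter and Notch4 without it, in every library of both tissues.

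Dll4 led the ligands of all CD31+ groups in TPM. Its share was 75.6% ± 2.33 in Colon CD31+ Rspo3+ cells, against 57.0% ± 3.45 in Colon CD31+ Rspo3- cells, and 80.5% ± 1.83 in SI CD31+ Rspo3+ cells, against 46.1% ± 7.53 in SI CD31+ Rspo3- cells. Jag2 took 2.03% ± 1.15 and 2.05% ± 0.679 in the Colon and SI CD31+ Rspo3+ cells, against 16.1% ± 4.04 and 19.3% ± 3.27 in the Colon and SI CD31+ Rspo3- cells. The summed ligand level was 112 ± 9.33 TPM in Colon CD31+ Rspo3+ cells, against 307 ± 54.1 TPM in Colon CD31+ Rspo3- cells. In the SI it was 119 ± 19.0 TPM in CD31+ Rspo3+ cells, against 286 ± 3.20 TPM in CD31+ Rspo3- cells. CD31- cells held far less ligand RNA, between 9.90 ± 4.28 TPM in Colon CD31- Rspo3+ cells and 28.5 ± 3.63 TPM in SI CD31- Rspo3- cells.

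In CD31- cells Notch2 had the largest mean receptor share in 3 of the 4 groups. In SI CD31- Rspo3- cells the mean share of Notch3 was the largest, 31.3% ± 6.65, with Notch1 at 29.6% ± 7.66 and Notch2 within their spread. Notch2 made up 69.8% ± 8.13 of the receptor TPM in Colon CD31- Rspo3+ cells, against 39.2% ± 7.82 in Colon CD31- Rspo3- cells. In SI CD31- cells the Notch2 share was 54.7% ± 12.2 with the reporter, against 29.2% ± 1.84 without it. Notch3 took 3.22% ± 2.13 in Colon CD31- Rspo3+ cells, against 25.2% ± 8.85 in Colon CD31- Rspo3- cells, and 1.81% ± 0.902 in SI CD31- Rspo3+ cells, against 31.3% ± 6.65 in SI CD31- Rspo3- cells. Dll1 was the largest ligand of SI CD31- cells, at 75.3% ± 3.35 of the ligand TPM with the reporter, against 84.5% ± 2.09 without it. Its colon shares were 44.6% ± 7.41 in CD31- Rspo3+ cells, against 59.8% ± 20.2 in CD31- Rspo3- cells, with a wide spread between libraries.

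**Figure D3:**
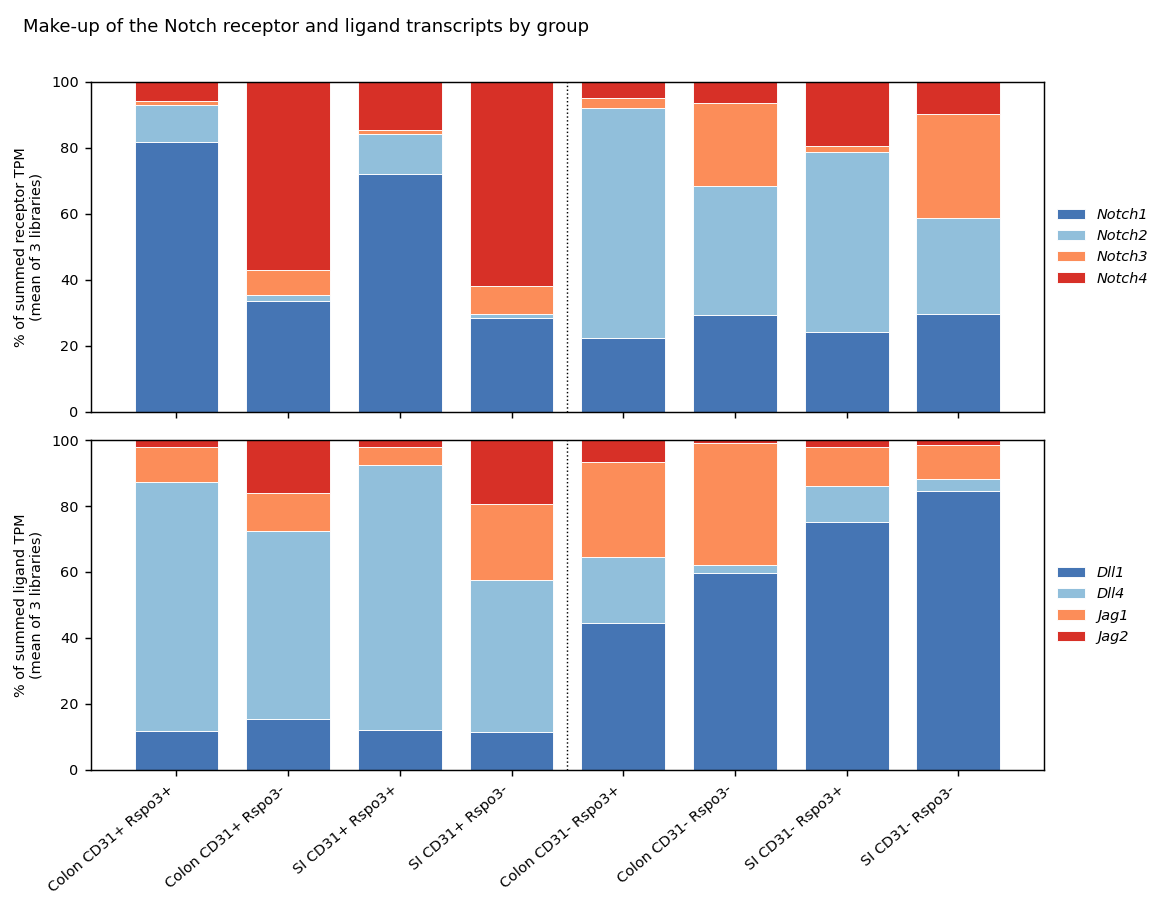
Mean share (percent, 3 libraries) of each receptor in the summed receptor TPM and of each ligand in the summed ligand TPM, in the 8 groups. Notch1 gives way to Notch4 as the largest receptor share between CD31+ Rspo3+ and CD31+ Rspo3- cells, and Dll4 is the largest ligand share in all CD31+ groups.

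In CD31- cells fewer members passed by reporter, and Notch3 and Dll1 fell there too. In Colon CD31- cells 3 of 10 passed, 1 higher and 2 lower, where 9.14% of all genes passed, 4.8% as higher and 4.34% as lower. In SI CD31- cells 5 of 10 passed, 1 higher and 4 lower, where 30.4% of all genes passed, 16.1% as higher and 14.3% as lower. The split of all genes there turned with the scaling. With DESeq2's size factors 2329 genes were higher and 3054 lower, against 3064 and 2732 in the main fit, and the members were 0 and 4. The median log2 fold change of the members was -0.36 in the colon and -0.32 in the SI, against 0 and 0.11 over all genes.

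Notch3 in Colon CD31- cells was 1.46, 1.05 and 3.22 CPM with the reporter, against 17.2, 42.7 and 8.08 CPM without it, where library 2 was the highest. The SI CD31- Rspo3+ libraries had 0.444, 1.29 and 0.583 CPM, from 11, 24 and 12 counts, against 15.2, 8.84 and 9.84 CPM in SI CD31- Rspo3- libraries. The groups did not overlap in either tissue. Notch3 fell 11.7-fold in the colon (log2 fold change -3.55 ± 0.72 SE, adjusted p = 0.00326) and 14.7-fold in the SI (log2 fold change -3.88 ± 0.74 SE, adjusted p = 0.000486). Without library 2 of Colon CD31- Rspo3- cells the colon log2 fold change was -2.71 (adjusted p = 0.0229).

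Mural markers were lower beside it in the colon, and fewer of them were in the SI. In Colon CD31- cells 7 of 10 pericyte markers and 9 of 10 smooth muscle markers were lower with the reporter and none was higher, and Rgs5 was 23.7 to 40.2 CPM in Rspo3+ cells, against 139.5 to 199 CPM in Rspo3- cells. In SI CD31- cells 5 pericyte markers were lower and 1 higher, and of the smooth muscle markers 1 was higher and none lower. Rgs5 there was 231 to 280.2 CPM in Rspo3+ cells, against 163 to 218 CPM in Rspo3- cells, and the summed pericyte level was 572 to 657 CPM with the reporter, against 503 to 638 CPM without it. Cspg4, another pericyte marker, was 8.31 to 17.4 CPM in SI CD31- Rspo3+ cells, against 56.4 to 96.6 CPM in SI CD31- Rspo3- cells. The part of mural cells in these Notch3 differences was not tested.

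Dll1 was 23.5, 20.9 and 21.5 CPM in SI CD31- Rspo3+ cells, against 54.5, 46.4 and 68.1 CPM in SI CD31- Rspo3- cells, a fall of 2.56-fold (log2 fold change -1.36 ± 0.27 SE, adjusted p = 0.00067) with no overlap. In Colon CD31- cells it was 11.4, 6.56 and 12.5 CPM with the reporter, against 11.9, 31.5 and 30.8 CPM without it. Library 1 of the Colon CD31- Rspo3- group lay inside the range of the Rspo3+ group, so that the groups overlapped although the test passed (log2 fold change -1.29 ± 0.27 SE, adjusted p = 0.00469); the call was lost when only the compared libraries were fitted (adjusted p = 0.143). In the SI comparison all 10 epithelial markers, all 7 enteric glial markers and all 6 mesothelial markers were lower with the reporter as well, the epithelial sum being 63.3 to 219 CPM in SI CD31- Rspo3+ cells, against 5796 to 9819 CPM in SI CD31- Rspo3- cells. Of 10 fibroblast markers 8 were higher with the reporter, and the part of these cells in the Dll1 difference was not tested.

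Dll4 passed in Colon CD31- cells at low levels, 5.75, 1.64 and 13.3 CPM with the reporter, against 0.495, 2.24 and 0.382 CPM without it. Library 2 of the Rspo3+ group lay below library 2 of the Rspo3- group (log2 fold change 2.65 ± 0.58 SE, adjusted p = 0.0058). Without library 3 of Colon CD31- Rspo3+ cells, the one with immune and epithelial RNA, the log2 fold change was 1.69 and the adjusted p 0.0504, and without library 2 of Colon CD31- Rspo3- cells it was 3.97 (0.00119). Fitted on the compared libraries alone it did not pass (0.165). Pan-endothelial markers moved with it, 7 of 10 being higher in Colon CD31- Rspo3+ cells and none lower, with sums of 90.8 to 183 CPM with the reporter, against 68.9 to 97.8 CPM without it; their part in the Dll4 difference was not tested. Without library 3 of Colon CD31- Rspo3+ cells 2 members passed in this comparison, Notch3 (-4.18, adjusted p = 0.00275) and Dll1 (-1.48, 0.00372), and 2300 genes in all, against 1741 with it. Jag2 passed as higher in Colon CD31- Rspo3+ cells with DESeq2 (0.0201) and without library 2 of that group (0.0268), and Jag1 as lower with DESeq2 (0.0423).

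The remaining calls were in SI CD31- cells. Heyl was 4.48, 6.92 and 5.25 CPM with the reporter, against 11.2, 16.4 and 11.6 CPM without it, a fall with no overlap (log2 fold change -1.23 ± 0.33 SE, adjusted p = 0.00729). Jag1 was 7.47, 6.76 and 3.84 CPM with the reporter, against 14.5, 11.7 and 10.6 CPM without it (log2 fold change -1.03 ± 0.37 SE, adjusted p = 0.0432). Hey1 was 5.41, 6.11 and 8.02 CPM with the reporter, against 3.15, 4.63 and 2.86 CPM without it, and rose (log2 fold change 0.89 ± 0.29 SE, adjusted p = 0.026). The Jag1 and Hey1 groups did not overlap, but the calls sat near the threshold. With limma voom the adjusted p was 0.129 for Jag1 and 0.128 for Hey1, and Jag1 was also lost on leaving out any 1 library of its 2 groups other than library 1 of SI CD31- Rspo3+ cells (0.0589 to 0.133). For Hey1 the call was also lost with DESeq2's size factors (0.061), with only the compared libraries (0.114) and without library 1 or 3 of SI CD31- Rspo3- cells (0.0919 and 0.118) or library 3 of SI CD31- Rspo3+ cells (0.268). Notch2 passed as higher without library 3 of SI CD31- Rspo3+ cells (0.0494). The epithelial, glial, mesothelial and fibroblast markers moved beside these 3 genes as they did beside Dll1, and 7 of 10 pan-endothelial markers were higher with the reporter, summing to 105 to 136 CPM in SI CD31- Rspo3+ cells, against 56.3 to 60.2 CPM in SI CD31- Rspo3- cells. Their part in these results was not tested.

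CD31+ cells, set against CD31- cells of the same tissue and reporter sign, held more of most members. In Colon Rspo3+ cells 6 of 10 members passed, all higher, where 33.1% of all genes passed, 14.9% as higher and 18.2% as lower. Colon Rspo3- cells had 8 of 10, 7 higher and 1 lower, where 32.5% of all genes passed, 16.1% as higher and 16.4% as lower. In SI Rspo3+ cells 7 of 10 members were higher and 0 lower, where 36.5% of all genes passed, 16.9% as higher and 19.6% as lower. SI Rspo3- cells had 7 of 10, 6 higher and 1 lower, where 41.6% of all genes passed, 20.1% as higher and 21.6% as lower. Member medians on the log2 scale were 1.69, 2.51, 2.44 and 3.84 in the same order, against medians over all genes of -0.07, -0.07, -0.01 and -0.03. These comparisons share libraries with those by reporter and are no independent check of them. Of 10 pan-endothelial markers 9 were higher in CD31+ cells in both Rspo3+ comparisons and all 10 in both Rspo3- comparisons. Of 10 fibroblast markers 9 were lower in SI Rspo3- cells and all 10 in the other 3. In Rspo3- cells all 7 glial markers were lower too, with 7 of 10 epithelial markers in the colon and all 10 in the SI. The part of these cells was not tested.

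Notch1, Notch4, Dll4, Jag1 and Hey1 passed as higher in CD31+ cells in all 4 comparisons. The largest differences were those of Dll4 in Colon Rspo3- cells (8.58 ± 0.69 SE, adjusted p = 1.33e-08) and of Jag2 in the same cells (7.82 ± 0.73 SE, adjusted p = 1.06e-07), where the CD31- libraries held 0.495, 0.330 and 0.812 CPM of Jag2. Notch4 was 6.70 ± 0.42 SE higher in Colon Rspo3- cells (adjusted p = 5.78e-10) and 6.51 ± 0.41 SE higher in SI Rspo3- cells (adjusted p = 4.66e-10) on the log2 scale. With the reporter the Notch4 difference was smaller, 2.06 ± 0.36 SE in the colon (adjusted p = 0.00015) and 2.60 ± 0.35 SE in the SI (adjusted p = 5.91e-06).

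Notch1 was higher by 3.97 ± 0.42, 2.62 ± 0.39, 3.75 ± 0.41 and 3.46 ± 0.41 SE on the log2 scale in Colon Rspo3+, Colon Rspo3-, SI Rspo3+ and SI Rspo3- cells, with adjusted p-values of 3.5e-07, 3.97e-05, 4.05e-07 and 1.43e-06. Hey1 was higher too, at 3.86 ± 0.31, 3.98 ± 0.31, 3.36 ± 0.30 and 5.71 ± 0.34 SE in the same order, with adjusted p-values of 2.45e-08 or less. The sizes of the 2 genes' differences did not run in the same order. For Dll4 the log2 differences were 4.93 ± 0.58, 8.58 ± 0.69, 5.92 ± 0.61 and 6.63 ± 0.63 SE in that order, and for Jag1 1.91 ± 0.38, 2.40 ± 0.38, 2.00 ± 0.38 and 4.21 ± 0.41 SE, with adjusted p-values of 0.000499 or less. The receptor, its ligand Dll4 and the target Hey1 were therefore higher in CD31+ cells whichever the reporter sign.

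Jag2 passed in 3 of the 4 comparisons and not in Colon Rspo3+ cells (log2 fold change 1.47 ± 0.59 SE, adjusted p = 0.0614). There it passed with no filter (0.0456), with DESeq2 (0.0477), without library 2 of Colon CD31+ Rspo3+ cells (0.0357) and, at 2.76, without library 3 of Colon CD31- Rspo3+ cells (0.00234). Its SI Rspo3+ value (log2 fold change 3.30 ± 0.64 SE, adjusted p = 0.000316) was 4.55 without library 3 of SI CD31- Rspo3+ cells. Dll1 passed in both colon comparisons (1.44 ± 0.27 SE, adjusted p = 0.000347, in Rspo3+ cells and 1.92 ± 0.27 SE, adjusted p = 2.1e-05, in Rspo3- cells) and in neither SI one. Heyl passed in SI Rspo3+ cells (log2 fold change 2.29 ± 0.34 SE, adjusted p = 1.66e-05) and in none of the other 3, although in Colon Rspo3+ cells (adjusted p = 0.0504) it did with DESeq2 (0.0453) and without library 2 of Colon CD31+ Rspo3+ (0.0325) or Colon CD31- Rspo3+ cells (0.0379). Notch2 was the only member to pass as lower, in Colon Rspo3- cells (log2 fold change -2.54 ± 0.48 SE, adjusted p = 0.000428) and in SI Rspo3- cells (log2 fold change -1.54 ± 0.47 SE, adjusted p = 0.0132), the SI call being lost with limma voom (0.0759), without library 1 of SI CD31- Rspo3- cells (0.0725) and without library 2 of SI CD31+ Rspo3- cells (0.0593). In Colon Rspo3+ cells Notch2 passed as lower with only the compared libraries (0.0188). Notch3 passed in none of the 4, but in SI Rspo3- cells it was higher with limma voom (0.0231) and with only the compared libraries (0.0107). Library 3 of Colon CD31- Rspo3+ cells, which held the most Pecam1 of any CD31- library, moved Notch4 and Dll4 as well as Jag2. Without it Notch4 was 2.66 and Dll4 5.88 on the log2 scale in Colon Rspo3+ cells, and 7 members passed. Without library 2 of Colon CD31- Rspo3- cells Dll4 was 9.85 in Colon Rspo3- cells.

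**Figure D4:**
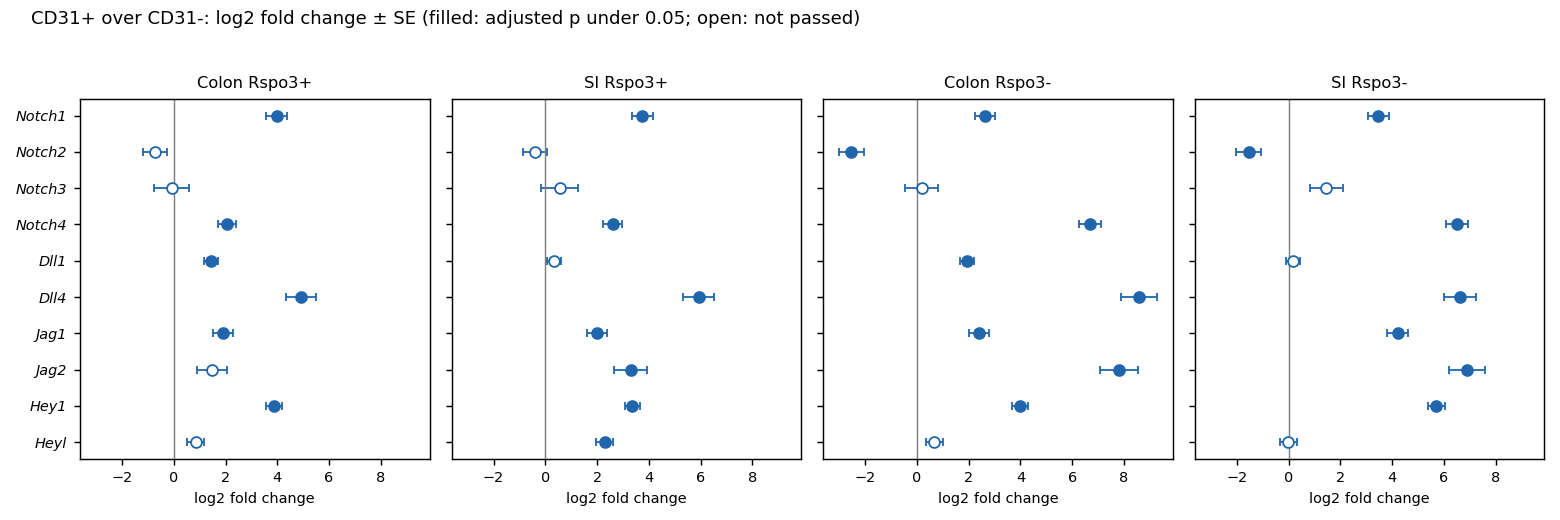
Log2 fold changes of the 10 members between CD31+ and CD31- cells in 4 comparisons (points, with bars of 1 standard error; filled where the adjusted p was under 0.05). Notch1, Notch4, Dll4, Jag1 and Hey1 lie above 0 and passed in all 4, Notch2 lies below 0 in Rspo3- cells and Notch3 passed in none.

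Between the tissues 0 to 3 members passed. In CD31+ Rspo3+ cells 0 of 10 members passed between colon and SI, where 6.35% of all genes passed, 2.83% as higher and 3.52% as lower. Of the members, 2 had an unadjusted p under 0.05 in edgeR's quasi-likelihood test. Hey1 came nearest, at 108, 139 and 129 CPM in Colon cells, against 69.1, 61.9 and 70.1 CPM in SI cells, with no overlap (log2 fold change 0.90 ± 0.27 SE, adjusted p = 0.0538). It was the 1 member to pass with DESeq2 (adjusted p = 0.0216), with limma voom (0.00858), with no filter on low counts (0.0487) and with only the compared libraries (0.00435).

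In CD31+ Rspo3- cells Heyl passed alone, at 51.2, 23.8 and 40.1 CPM in Colon cells, against 14.0, 8.51 and 16.2 CPM in SI cells (log2 fold change 1.57 ± 0.33 SE, adjusted p = 0.00784), where 4.43% of all genes passed, 2.72% as higher and 1.71% as lower. The call was lost with only the compared libraries (0.0692) and without library 2 of SI CD31+ Rspo3- cells (0.0561). Beside it 3 of 10 fibroblast and 2 of 10 pericyte markers were higher and 4 of 10 lymphatic markers lower in the colon. The fibroblast sums were 1494 to 9910.1 CPM in Colon CD31+ Rspo3- cells, the highest in library 3, against 1166 to 1499 CPM in SI CD31+ Rspo3- cells. Heyl still passed without that library (adjusted p = 0.0304). The part of these cells was not tested. In CD31- Rspo3+ cells 2 members passed, where 7.02% of all genes passed, 3.62% as higher and 3.4% as lower. Heyl was 7.80, 16.1 and 14.6 CPM in Colon cells, against 4.48, 6.92 and 5.25 CPM in SI cells (log2 fold change 1.22 ± 0.33 SE, adjusted p = 0.0295). Dll1 was 11.4, 6.56 and 12.5 CPM in Colon cells, against 23.5, 20.9 and 21.5 CPM in SI cells (log2 fold change -1.11 ± 0.27 SE, adjusted p = 0.0159). Neither pair of groups overlapped, and both calls were lost with only the compared libraries (0.0715 for Heyl and 0.0764 for Dll1). On leaving out 1 library, Dll1 was lost without library 1 or 3 of SI CD31- Rspo3+ cells (0.0548 and 0.0623) and library 2 of Colon CD31- Rspo3+ cells (0.0835). Heyl was lost without library 1 or 3 of SI CD31- Rspo3+ cells (0.128 and 0.0911) and library 2 or 3 of Colon CD31- Rspo3+ cells (0.0765 and 0.097), and with limma voom (0.0926). In these cells 5 of 10 lymphatic and 4 of 10 smooth muscle markers were lower in the colon, and their part was not tested.

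In CD31- Rspo3- cells 3 members passed between the tissues, 2 higher and 1 lower in the colon, where 17.6% of all genes passed, 8.79% as higher and 8.81% as lower. Hey1 was 10.3, 13.5 and 5.64 CPM in Colon cells, against 3.15, 4.63 and 2.86 CPM in SI cells (log2 fold change 1.49 ± 0.29 SE, adjusted p = 0.00128). Dll1 was 11.9, 31.5 and 30.8 CPM in Colon cells, against 54.5, 46.4 and 68.1 CPM in SI cells (log2 fold change -1.18 ± 0.27 SE, adjusted p = 0.00377). Notch2 was 22.5, 68.4 and 30.9 CPM in Colon cells, against 18.6, 8.84 and 12.2 CPM in SI cells (log2 fold change 1.62 ± 0.46 SE, adjusted p = 0.0189), and was 1.00 with an adjusted p of 0.176 without library 2 of Colon CD31- Rspo3- cells. Its call was also lost without library 2 or 3 of SI CD31- Rspo3- cells (0.0928 and 0.0827). None of these 3 pairs of groups overlapped. Members that passed here only under an alternative were Heyl with limma voom (0.0352) and without library 3 of Colon CD31- Rspo3- cells (0.0423), Jag1 with only the compared libraries (0.0348) and without the same library (0.037), and Dll4 with DESeq2 (0.0225) and without library 2 of that group (0.00826). Of 10 smooth muscle markers 7 were higher in the colon in these cells, and their part in the differences was not tested.

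Whether the reporter difference itself differed was tested by interactions. Between the tissues in CD31+ cells only Heyl passed (colon minus SI -1.79 ± 0.46 SE on the log2 scale, adjusted p = 0.0479), where 1.93% of all genes passed, 0.64% as higher and 1.29% as lower. The call was lost with DESeq2's size factors (0.0547), with no filter (0.0543), with only the compared libraries (0.0671) and in 10 of the refits without 1 library (0.0654 to 0.142). In CD31- cells 0 members passed, where 8.38% of all genes passed, 4.91% as higher and 3.48% as lower. Of the genes that passed 58.5% were higher, and 70.0% with DESeq2's size factors. Of these members 3 had an unadjusted p under 0.05 in edgeR's test, and 2 passed with DESeq2, 1 with no filter and 0 with limma voom, DESeq2's size factors or only the compared libraries. On leaving out 1 library, Dll4 and Jag2 passed without library 2 of Colon CD31- Rspo3+ cells (0.00566 and 0.0282), Dll4 without library 2 (0.00989) and Hey1 without library 3 (0.0307) of Colon CD31- Rspo3- cells, and Jag2 without library 3 of SI CD31- Rspo3+ cells (0.0234). Between CD31+ and CD31- cells 5 members passed in the SI, where 24.3% of all genes passed, 11.1% as higher and 13.1% as lower. Notch4 (-3.91 ± 0.50 SE, adjusted p = 9.13e-06), Jag1 (-2.21 ± 0.52 SE, 0.00381), Jag2 (-3.60 ± 0.88 SE, 0.00499) and Hey1 (-2.35 ± 0.40 SE, 0.000225) had a more negative reporter difference in CD31+ cells. Heyl had a more positive one (2.30 ± 0.46 SE, 0.00104). In the colon 3 members passed, where 17% of all genes passed, 6.61% as higher and 10.4% as lower. They were Notch4 (-4.64 ± 0.51 SE, 2.07e-06), Dll4 (-3.66 ± 0.75 SE, 0.00171) and Jag2 (-6.36 ± 0.89 SE, 3.26e-05). Without library 3 of SI CD31- Rspo3+ cells Jag2 in the SI was -2.31 and did not pass (0.109). Without library 3 of Colon CD31- Rspo3+ cells the colon values were -4.04 for Notch4, -2.70 for Dll4 and -5.07 for Jag2, all still past the threshold, and without library 2 of Colon CD31- Rspo3- cells Dll4 was -4.93. Notch2 passed in the colon as more positive with DESeq2 (0.0254), with only the compared libraries (0.0261) and without library 1 of Colon CD31- Rspo3- (0.0304) or library 3 of Colon CD31+ Rspo3- cells (0.0458), and Notch1 with only the compared libraries (0.0348). Of the 46 other pathway genes tested, 3 were more positive and 11 more negative in the SI (30.4%), 4 and 8 with DESeq2's size factors. In the colon 4 were more positive and 8 more negative (26.1%).

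Of 47 other Notch pathway genes 46 could be tested. In Colon CD31+ cells 4 were higher and 10 lower with the reporter, 30.4% of those tested against 23.1% of all genes. The counts in SI CD31+ cells were 4 higher and 7 lower, 23.9% against 20.1% of all genes. Dtx1, a ubiquitin ligase of the Deltex family that acts on Notch receptors, led those that rose. It was 567, 601 and 753 CPM in Colon CD31+ Rspo3+ cells, against 21.2, 37.2 and 32.4 CPM in Colon CD31+ Rspo3- cells (log2 fold change 4.40 ± 0.40 SE, adjusted p = 1.19e-07). In SI CD31+ cells it was 802, 849 and 630.2 CPM with the reporter, against 98.5, 51.7 and 147 CPM without it (log2 fold change 2.94 ± 0.38 SE, adjusted p = 8.11e-06). The groups were far apart in both tissues. Psen2 and Aph1b, subunits of gamma-secretase, rose with it: Psen2 averaged 146 ± 39.1 CPM in Colon CD31+ Rspo3+ cells and 29.9 ± 3.30 CPM in Colon CD31+ Rspo3- cells (SD, n = 3 each; adjusted p = 5.21e-07). Aph1b averaged 126 ± 21.9 CPM in Colon CD31+ Rspo3+ cells and 23.2 ± 2.66 CPM in Colon CD31+ Rspo3- cells (adjusted p = 7.38e-06). Both passed in the SI too, with log2 fold changes of 1.40 ± 0.23 and 1.95 ± 0.31 SE (adjusted p = 0.000128 and 8.45e-05).

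Hey2, another HEY repressor and a gene of arteries, fell in all 4 reporter comparisons. It was 0.722, 1.28 and 1.90 CPM in Colon CD31+ Rspo3+ cells, against 20.9, 18.3 and 9.96 CPM in Colon CD31+ Rspo3- cells (log2 fold change -3.65 ± 0.48 SE, adjusted p = 1.15e-05). In SI CD31+ cells it was 1.24, 1.66 and 3.32 CPM with the reporter, against 15.7, 17.3 and 15.3 CPM without it (log2 fold change -2.99 ± 0.47 SE, adjusted p = 9.24e-05). The CD31- log2 fold changes were -2.21 ± 0.47 SE in the colon (adjusted p = 0.00457) and -2.34 ± 0.47 SE in the SI (adjusted p = 0.000773). Its promoter window, printed above, holds 2 of the RBPJ letter matches. The windows of Hes6 and Nrarp, described below, held 0, and 1 window of Psen2, which rose, held 1. Hes6, a HES family member, fell in both CD31+ comparisons (-1.40 ± 0.20 SE in the colon and -1.67 ± 0.20 SE in the SI; adjusted p = 2.07e-05 and 3.19e-06). Numb, an adaptor that inhibits Notch, fell in Colon CD31+ cells to 122 ± 4.50 CPM in Rspo3+ cells, against 229.6 ± 32.9 CPM in Rspo3- cells (SD, n = 3 each; adjusted p = 3.91e-05).

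Nrarp, a feedback inhibitor that Notch turns on, was among the 3 leading falls in SI CD31+ cells. It was 12.9, 11.3 and 8.18 CPM with the reporter, against 179.9, 168 and 150.4 CPM without it (log2 fold change -3.93 ± 0.56 SE, adjusted p = 3.02e-05). In Colon CD31+ cells it was 81.3, 90.5 and 134 CPM with the reporter, against 277, 212 and 230.0 CPM without it (log2 fold change -1.23 ± 0.50 SE, adjusted p = 0.083). Between the CD31+ Rspo3+ cells of the 2 tissues Nrarp passed (log2 fold change 3.23 ± 0.54 SE, adjusted p = 0.000861, colon over SI), while the interaction of tissue and reporter gave 2.70 ± 0.72 SE (adjusted p = 0.0582). The colon values of Nrarp, its interaction and the values of Mfng were chosen after they were seen. Mfng, the Manic fringe glycosyltransferase that alters how receptors answer ligands, was 1.62, 0.767 and 1.14 CPM in Colon CD31+ Rspo3+ cells, against 47.7, 52.5 and 38.3 CPM in Colon CD31+ Rspo3- cells (log2 fold change -5.29 ± 1.02 SE, adjusted p = 0.000671). In SI CD31+ cells it was 0, 0.491 and 0.948 CPM with the reporter, against 46.2, 46.4 and 57.4 CPM without it (log2 fold change -6.91 ± 1.14 SE, adjusted p = 0.000153).

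**Figure D5:**
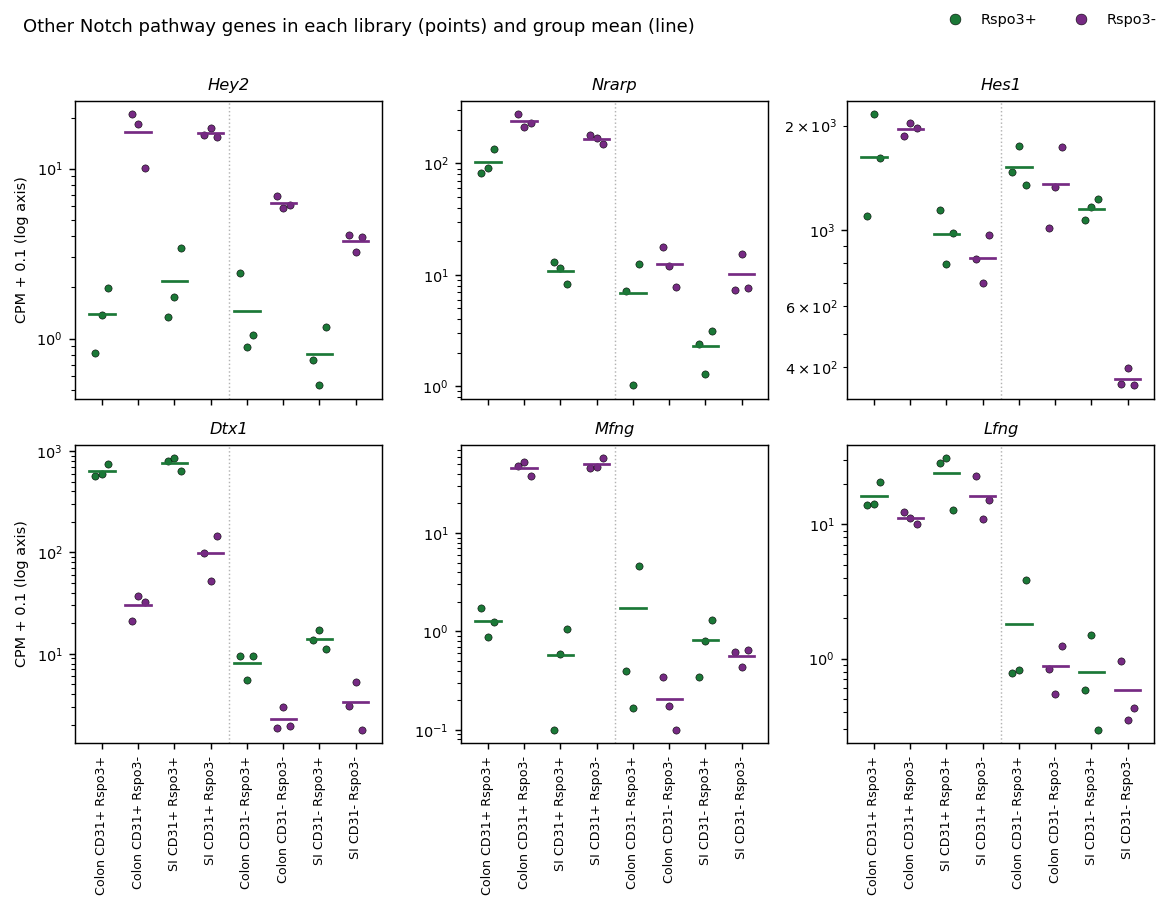
Levels of Dtx1, Hey2, Nrarp, Mfng, Hes1 and Lfng as CPM plus 0.1 (log axis) in the 8 groups, with 1 point per library and a bar for the mean. Dtx1 is high, and Hey2 and Mfng low, in CD31+ Rspo3+ cells relative to CD31+ Rspo3- cells, and Nrarp is low in SI CD31+ Rspo3+ cells.

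Of the other pathway genes 14 were higher with the reporter in SI CD31- cells, 5 were lower and 27 did not pass, so that 41.3% of those tested passed, against 30.4% of all genes. With DESeq2's size factors, which shift the median of all genes by -0.108, they were 10 and 5. In Colon CD31- cells 4 were higher and 1 lower, a share of 10.9% against 9.14% of all genes. Hes1, the HES repressor most widely turned on by Notch, rose in SI CD31- cells. It was 1065, 1162 and 1228 CPM with the reporter, against 358, 398 and 354 CPM without it (log2 fold change 1.64 ± 0.23 SE, adjusted p = 2.21e-05). Its colon values, 1468, 1742 and 1344 CPM in CD31- Rspo3+ cells and 1009, 1327 and 1733 CPM in CD31- Rspo3- cells, overlapped, and the difference between the tissues passed (-1.48 ± 0.32 SE, adjusted p = 0.00611). Adam17, a protease that cuts receptors at the surface, and Numbl, a relative of Numb, rose in SI CD31- cells (1.02 ± 0.15 and 1.81 ± 0.30 SE; adjusted p = 4.32e-05 and 0.000124). Numb and Hes6 fell there (-0.82 ± 0.13 and -0.87 ± 0.19 SE; adjusted p = 0.000113 and 0.0017). In Colon CD31- cells Dtx1, Adam17 and Numbl rose (1.88 ± 0.39, 0.56 ± 0.15 and 1.01 ± 0.29 SE; adjusted p = 0.00416, 0.0219 and 0.0348). The call of Dtx1 was lost with limma voom (0.11). That of Adam17 was lost with no filter (0.0908), with only the compared libraries (0.123) and in 4 refits without 1 library (0.055 to 0.119). That of Numbl was lost in 5 such refits (0.0842 to 0.122). In Colon CD31- cells 7 of 10 pan-endothelial, 6 of 10 lymphatic and 7 of 10 immune markers were higher with the reporter, and none was lower. In SI CD31- cells 8 of 10 fibroblast markers were higher with the reporter, and all 10 epithelial and all 7 glial markers were lower. The part of these cells in the differences was not tested.

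Between CD31+ and CD31- cells the other pathway genes moved in both directions. In Colon Rspo3+ cells 10 were higher and 14 lower, in Colon Rspo3- cells 11 and 9, in SI Rspo3+ cells 11 and 14, and in SI Rspo3- cells 17 and 9. These were 52.2%, 43.5%, 54.3% and 56.5% of those tested, against 33.1%, 32.5%, 36.5% and 41.6% of all genes. The genes named here each passed the test. Dtx1 and the protease gene Adam10 were among the 3 leading rises in each of the 4, with Dtx1 at 6.32 ± 0.44 SE in Colon Rspo3+ cells and 2.75 ± 0.18 SE for Adam10 in the same cells. Psen2 in Colon Rspo3+ cells (2.47 ± 0.24 SE), Numb in Colon Rspo3- and SI Rspo3+ cells (1.65 ± 0.14 and 1.71 ± 0.14 SE) and the coactivator Maml2 in SI Rspo3- cells (1.79 ± 0.22 SE) made up the rest. Dtx4, another Deltex family gene, was among the leading falls in all 4, from -3.92 ± 0.43 SE in SI Rspo3+ cells to -2.38 ± 0.40 SE in Colon Rspo3- cells. Numbl fell in 3 (-2.79 ± 0.31, -1.44 ± 0.30 and -2.84 ± 0.31 SE in Colon Rspo3+, Colon Rspo3- and SI Rspo3+ cells). Rfng, the Radical fringe gene, fell in Colon Rspo3+, SI Rspo3+ and SI Rspo3- cells (-1.47 ± 0.16, -1.93 ± 0.16 and -0.71 ± 0.15 SE). Pofut1, which adds fucose to Notch receptors, fell in Colon Rspo3- cells (-0.97 ± 0.21 SE), and Epn1, an endocytic adaptor for ligands, in SI Rspo3- cells (-1.77 ± 0.38 SE).

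Between the tissues 3, 2, 1 and 7 of the other pathway genes passed in CD31+ Rspo3+, CD31+ Rspo3-, CD31- Rspo3+ and CD31- Rspo3- cells. These shares of 6.52%, 4.35%, 2.17% and 15.2% stood beside 6.35%, 4.43%, 7.02% and 17.6% of all genes. In CD31- Rspo3- cells 6 were higher and 1 lower in the colon, and 4 and 4 with DESeq2's size factors, and in CD31+ Rspo3- cells 1 and 1, and 1 and 2 with them. Those named here were chosen after their values were seen. Hes1 was higher in Colon CD31+ Rspo3- cells, at 1871, 2032 and 1963 CPM, against 821, 701 and 963 CPM in SI CD31+ Rspo3- cells (log2 fold change 1.24 ± 0.23 SE, adjusted p = 0.00277). It was also higher in Colon CD31- Rspo3- cells than in SI CD31- Rspo3- cells (log2 fold change 1.87 ± 0.23 SE, adjusted p = 9.3e-06). Dtx1 was lower in Colon CD31+ Rspo3- cells than in SI CD31+ Rspo3- cells (log2 fold change -1.71 ± 0.36 SE, adjusted p = 0.00828), a call lost with only the compared libraries (0.066) and without library 3 of SI CD31+ Rspo3- cells (0.0521). In CD31+ Rspo3+ cells Numb was lower in the colon (log2 fold change -0.60 ± 0.13 SE, adjusted p = 0.0085), with an adjusted p of 0.052 without library 2 of SI CD31+ Rspo3+ cells, and Nrarp was higher. Hes5 was 2.22 to 3.49 CPM in Colon CD31+ Rspo3+ cells, against 0.119 to 0.491 CPM in SI CD31+ Rspo3+ cells (adjusted p = 0.0365), a call lost with no filter (0.0544) and on leaving out any library of the 2 groups (0.0616 to 0.136). Hes5 was also the 1 gene to pass in CD31- Rspo3+ cells, at 0.656 to 1.17 CPM in Colon cells, against 0 to 0.146 CPM in SI cells (adjusted p = 0.0211), and lost the call with only the compared libraries (0.0603) and without library 1 or 2 of the SI group (0.0953 and 0.0952) or library 1 of the colon group (0.0526).

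The genes most like each member over the 24 libraries were found by Pearson's r of log2 CPM, as a description of libraries that share a sort and a sequencing depth. Notch4 and Jag2 were among each other's closest genes (r = 0.971), after Tcf15 for Notch4 (0.975) and ahead of Cd93 for Jag2 (0.969). Notch1 was closest to Dysf (0.976) and Dock9 (0.971), Dll4 to Jak3 (0.986) and Adgrf5 (0.984), and Hey1 to Depp1 (0.976) and Unc45b (0.974). Jag1 was closest to Esam (0.941) and Tinagl1 (0.939), and Dll1 to Rhebl1 (0.924) and Lipe (0.885). Notch3 was closest to Olfml2a (0.939) and Rasl12 (0.937), and Notch2 to Tnxb (0.921) and Itsn1 (0.909). Heyl had the weakest likeness, with Rbl1 (0.822) and Ripk3 (0.805). Notch2 had no member near it, its highest r with another member being -0.0783, with Heyl.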

How the data were processed

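RNA of 24 libraries was purified with a Qiagen kit and made into libraries with SMARTseq v4 chemistry, per the labels' protocols; reads carry no strand. The authors quantified with Salmon 1.3.0 and worked in R 4.0.1 on build mm10, per the submitters' processing notes. Which annotation and filters they used is not given in the sources used here. Their deposited estimated counts are whole, so none were rounded. Their deposited log2 values hold log2(TPM + 1), since back-transformed values sum to 1000000 in each library; they were used only to compare genes with each other. Gene names and positions came from GENCODE M21 (GRCm38), which named 54096 IDs (99.4%).

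All 24 libraries entered 1 fit with a mean per group in edgeR 4.0.16 (R 4.3.3; quasi-likelihood F test, TMM scaling, at least 10 counts in enough libraries and 15 in all), which left 19050 genes, with a common biological coefficient of variation of 0.429. P-values were adjusted by Benjamini-Hochberg. The script was tested on simulated counts. Alternatives were DESeq2 1.42.0, DESeq2's size factors in edgeR, no filter, limma 3.58.1 (voom), only the compared libraries, and 24 refits without 1 library each.

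All 10 members were named, with values where they passed or were set against a member that did. Of the other 47 pathway genes up to 3 with the smallest adjusted p in each direction were named in the reporter and CD31 comparisons. For likeness, the 2 genes of largest r (prior count 2, a mean of 10 CPM or more in a group) were named. The members and lists were chosen with earlier results of these data known.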

Additional observations from a re-analysis of the deposited data

Results flagged for a closer look

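Interaction tests in edgeR passed for 9 differences between effects of the members and, for the tissue, for 2 of the other pathway genes, given here as log2 values. Between CD31+ and CD31- cells 50% of the members passed in the SI and 30% in the colon, against 24.3% and 17% of all genes. For the tissue 10% of the members passed in CD31+ cells and 0% in CD31- cells, against 1.93% and 8.38% of all genes. Of the 46 other pathway genes tested 2.17% passed for the tissue in CD31+ cells and 2.17% in CD31- cells, near or below these shares of all genes. In the SI the reporter effect in CD31+ cells minus that in CD31- cells was -3.91 for Notch4, -2.21 for Jag1, -3.60 for Jag2, -2.35 for Hey1 and 2.30 for Heyl. In the colon the same difference was -4.64 for Notch4, -3.66 for Dll4 and -6.36 for Jag2. The reporter effect in the colon minus that in the SI was -1.79 for Heyl and -0.99 for Numb in CD31+ cells, and -1.48 for Hes1 in CD31- cells. The Numb value was -0.92 and lost the call with only the compared libraries (adjusted p = 0.0565). The tissue difference of -1.79 for Heyl (adjusted p = 0.0479) lost the call under 13 of 17 alternatives. Jag2 in the SI lost the call without library 3 of SI CD31- Rspo3+ cells (0.109). The reporter difference of Heyl had opposite signs in SI CD31+ cells (1.07 ± 0.33 SE) and SI CD31- cells (-1.23 ± 0.33 SE), both past the threshold. Hey1 had opposite signs as well, -1.45 ± 0.27 SE in SI CD31+ cells and 0.89 ± 0.29 SE in SI CD31- cells, both past the threshold too. The Hey1 call in SI CD31- cells was lost under 6 of 11 alternatives, and the Heyl call in SI CD31+ cells under 3 of 11.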

How the results depend on the processing

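Of 65 member calls over all comparisons, 53 passed under every alternative and 0 changed sign. DESeq2 lost 0, no filter 1, DESeq2's size factors 2, limma voom 4, only the compared libraries 7, and leaving out 1 library 11. Of the 95 member values that did not pass, 21 passed under at least 1 alternative. No paired analysis was possible because the columns carry no replicate number. DESeq2's size factors moved the median over all genes by -0.108 (log2) in the SI CD31- reporter comparison and by 0.117 in the tissue difference of the reporter effect in CD31- cells. Depth limits members near 1 CPM, where few counts carry the value.

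Members passing in SI CD31- cells by reporter were 5, and 3 with voom. In Colon CD31- cells they were 3, with 5 under DESeq2 and 1 with only the compared libraries; the other pathway genes were 5, with 8 under DESeq2, and all genes 1741, with 1152 in only the compared libraries. Between colon and SI in CD31+ Rspo3+ cells the members were 0, with 1 under no filter, voom, DESeq2 and only the compared libraries, the other genes 3, with 5 under voom and 6 under DESeq2, and all genes 1209, with 1816 under DESeq2. In CD31+ Rspo3- cells the members were 1, with 0 in only the compared libraries, the others 2, with 1 there, and all genes 844, with 1531 under DESeq2 and 320 in only the compared libraries. In CD31- Rspo3+ cells the members were 2, with 1 under voom and 0 in only the compared libraries, the others 1, with 2 under DESeq2's size factors and 3 under voom and DESeq2, and all genes 1337, with 2077 under DESeq2. In CD31- Rspo3- cells the others were 7, with 4 under no filter and 11 under voom and DESeq2. For the tissue difference in CD31+ cells the members were 1, with 0 under DESeq2's size factors and no filter and 2 under voom and DESeq2, the others 1, with 2 under no filter and voom and 3 under DESeq2, and all genes 367, with 809 under DESeq2. In CD31- cells it had 0 members, with 1 under no filter and 2 under DESeq2, and 1 other gene, with 2 under voom, 3 under DESeq2 and 4 in only the compared libraries. The colon difference between CD31+ and CD31- cells had 3 members, with 5 in only the compared libraries.

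Leaving out 1 library gave, by reporter, 3 to 5 members and 12 to 17 others in SI CD31- cells, and 2 to 6 others and 1059 to 2300 genes in Colon CD31- cells. Between the tissues it gave 1 to 4 others and 749 to 912 genes in CD31+ Rspo3+ cells, 0 to 1 members, 1 to 4 others and 523 to 804 genes in CD31+ Rspo3- cells, 0 to 2 members, 0 to 3 others and 731 to 1385 genes in CD31- Rspo3+ cells, and 2 to 5 members, 1 to 8 others and 1966 to 2875 genes in CD31- Rspo3- cells. The tissue difference had 0 to 2 members, 1 to 2 others and 233 to 374 genes in CD31+ cells, and 0 to 2 members, 1 to 3 others and 841 to 1817 genes in CD31- cells. The cause of these moves was not tested.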
